A study of Mus musculus with 12 samples.

Results

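The effect of dietary iron on liver RNA was read from the 6 libraries made with the Lexogen QuantSeq 3’ kit (3’-LEXO), which are 6 of the 12 libraries of the series. The other 6 libraries were made from the same RNA with a whole-transcript kit, KAPA Stranded mRNA-Seq (Trad-KAPA), and serve here as the reference for transcripts that this kit reads poorly and for the comparison of the diet effect between kits. Every liver came from a female SJL/J mouse of 11 weeks. The 3 control mice ate the purified diet AIN-93G with 50 ppm iron throughout, and the 3 iron-loaded mice ate the same diet with 2% carbonyl iron from 6 weeks of age. Mice were housed by diet, 4 in a cage, so diet and cage cannot be told apart. They were fasted and perfused with saline before about 20 mg of the large lobe was taken, and 1 µg of RNA went into each library. Members of the comparison are the 13301 genes, out of 27022 in the table, that passed the expression filter within these 6 libraries with enough reads in at least 3 of them, so a gene could pass through 1 diet alone.

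Iron taken up in excess is stored in hepatocytes inside ferritin. The liver senses it through BMP ligands and SMAD transcription factors, which drive transcription of hepcidin, the peptide hormone that blocks iron export through ferroportin. Iron that is not bound to protein feeds the formation of oxygen radicals, and the transcription factor NRF2 controls many of the genes that answer such stress. The 3’-LEXO kit primes cDNA on the poly(A) tail and yields one fragment per transcript near its 3’ end, whereas Trad-KAPA shears mRNA and samples the whole length, so that a short transcript gives it few fragments. Levels are given as CPM, read counts divided by the library total as scaled by edgeR. Since one 3’-LEXO fragment stands for one transcript, CPM in this kit was not divided by length.

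The 6 libraries held 10724672 to 14104236 counts. On the first principal component of the log2 levels, which held 60% of the variance, the control libraries lay at about the same place and the library of iron-loaded mouse 1 lay farther out, at 42.9, than those of iron-loaded mice 2 and 3, at 10.03 and 15.4. Results are therefore given with and without this library where it matters. Defining hepatocyte genes were at high levels in both diets: the summed CPM of Alb, Apoa1, Ttr, Serpina1a and Cps1 was 55240 to 67950 in control and 40450 to 63810 in iron-loaded mice. In bulk liver, fewer cells of a type and less RNA per cell cannot be told apart. Per the study’s methods, each library of a diet came from a different mouse.

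Between the diets, 811 of 13301 genes passed an adjusted p of 0.05 (edgeR quasi-likelihood test, Benjamini-Hochberg adjustment over all genes tested), which is 6.1%. Of these, 422 (3.17%) were higher and 389 (2.92%) lower in iron-loaded mice. The calls in each gene list below are to be read against the 6.1% over all genes. In the heme, unfolded protein response, p53, apolipoprotein, complement, cell cycle and lysosome lists the share called was near it. In 4188 genes (31.5%) the CPM of the diets did not overlap. Among called genes this held for 637 of 639 called in both kits and 172 of 172 called in 3’-LEXO alone. It therefore adds little to a call. DESeq2 called 1313 of 13923 genes (9.43%). The number of calls rested on the libraries that were used. It was 871 without iron-loaded mouse 1 and 771 without iron-loaded mouse 2, but 346 without iron-loaded mouse 3 and 326, 263 and 199 without control mouse 1, 2 or 3. Of the 811 genes, 663 were also called without iron-loaded mouse 1, and all 811 kept their sign there.

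Of the 131 called genes described in what follows, 52 passed under each alternative processing tried and without any one library. They are Cd63, Smad9, Dio1, Slco1a1, Ccl2, Ccl6, Mmp12, Apcs, Igdcc4, Lpl, Cyp4a14, Cyp4f15, Cyp8b1, Nnmt, Serpinb1a, Spink1, Marco, Sult5a1, Oat, Eci3, H2-M2, Ugt2b35, Ugt2b37, Tceal5, H19, E230001N04Rik, Plin2, Ciart, Bex2, Per2, S100a4, Id4, Asns, Nr0b2, Traf6, Gpnmb, Alas1, Nqo1, Orm3, Elovl5, Hpd, Ddit4, Rnu11 and the Mup genes Mup1, Mup3, Mup5, Mup6, Mup9, Mup10, Mup12, Mup18 and Mup19. The other 79 lost their call under at least one of these settings. The fold change of 25 of the 131 moved by over 1.5 times when one library was left out. These were Ciart, Rnu11, Slc7a11, Atoh8 and Hamp without control mouse 1, Igdcc4 without control mouse 2, Mmp12, Spink1, Tceal5, Mup4 and Hist1h4i without control mouse 3, Asns, Gpnmb, Abcc4, Igfbp1, Trib3, Bcl2a1b, Mup12 and Mup17 without iron-loaded mouse 1, Mup3, Mup4, Mup6, Mup10, Mup12, Mup17 and mt-Tq without iron-loaded mouse 2 and Ugt2b37 and Mup19 without iron-loaded mouse 3. Without iron-loaded mouse 1 the calls of Col5a1, Hist1h4i, Bcl2a1b, Atp5e, Lyve1, Isg15, mt-Nd6, Tat, Oas2, Acer2 and 1810021B22Rik were lost.

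**Figure D1:**
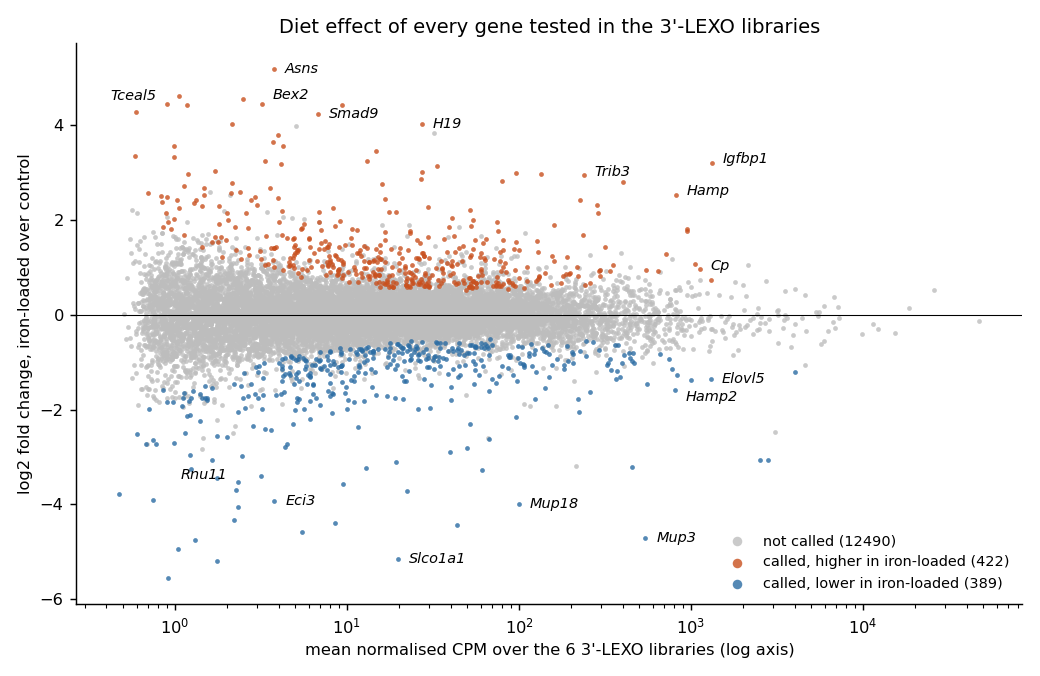
Log2 fold change (iron-loaded over control, vertical axis) of each of the 13301 genes tested against its mean normalised CPM over the 6 3’-LEXO libraries (horizontal log axis). Orange points are the 422 genes called higher and blue points the 389 called lower in iron-loaded mice, grey points were not called, and named points include Asns at the top and Slco1a1 and Mup3 at the bottom.

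The largest changes were taken among called genes that reached 5 CPM in a diet and did not overlap between the diets. The 10 largest rises were those of Asns, Bex2, Mmp12, Smad9, H19, H2-M2, E230001N04Rik, Igdcc4, Ciart and Abcc4. Asns encodes asparagine synthetase. It was at 0.145, 0.212 and 0.227 CPM in the control mice and 14.3, 3.62 and 4.09 CPM in the iron-loaded mice. Control mice held at most 3 counts each, so the mean of the iron-loaded mice was at least 33.5-fold that of control (log2 fold change 5.19, SE 0.70, adjusted p = 0.00429). Iron-loaded mouse 1 was the highest and set much of that mean. Without it the log2 fold change was 4.24 (adjusted p = 0.000284). Mmp12, a macrophage elastase, stood at 0.435, 0.423 and 1.66 CPM in the control mice and 22.6, 13.9 and 17.1 CPM in the iron-loaded mice (log2 fold change 4.42, SE 0.42, adjusted p = 0.000767). Bex2, a short X-linked gene, was at 0.29, 0.0706 and 0.454 CPM in the control mice and 2.62, 7.62 and 8.09 CPM in the iron-loaded mice (log2 fold change 4.45, SE 0.60, adjusted p = 0.0041). All 3 iron-loaded mice lay above all 3 control mice in each of these genes, which the choice required. H19 is an imprinted noncoding RNA that the adult liver normally keeps low. Its CPM were 3.99, 3.32 and 2.04 in control and 16.5, 70.7 and 66.2 in iron-loaded mice (log2 fold change 4.03, SE 0.52, adjusted p = 0.00344), and iron-loaded mouse 1 rose least of the 3. Abcc4, an exporter of the basolateral membrane that carries bile acids, was at 3.26, 2.61 and 1.66 CPM in the control mice and 46.7, 12.5 and 11.9 CPM in the iron-loaded mice (log2 fold change 3.24, SE 0.55, adjusted p = 0.0119). Here iron-loaded mouse 1 was the highest, and the log2 fold change without it was 2.26 (adjusted p = 0.000535).

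By the same rule the 10 largest falls were those of Slco1a1, Mup3, Mup10, Mup9, Mup1, Mup18, Eci3, Nnmt, Serpinb1a and Ugt2b37. Slco1a1, an uptake transporter of organic anions that male livers express more than female ones, went from 19.1, 45.8 and 50.4 CPM in control to 0.873, 1.58 and 0.818 CPM in iron-loaded mice, 35.4-fold lower (log2 fold change -5.14, SE 0.43, adjusted p = 0.000637). Eci3, an enzyme of peroxisomal fatty acid oxidation, was at 5.003, 11.4 and 4.91 CPM in the control mice and 0.218, 0.651 and 0.545 CPM in the iron-loaded mice (log2 fold change -3.94, SE 0.49, adjusted p = 0.00307). Nnmt, which methylates nicotinamide, was at 56.7, 21.7 and 46.4 CPM in the control mice and 2.26, 5.11 and 2.18 CPM in the iron-loaded mice (log2 fold change -3.72, SE 0.42, adjusted p = 0.00197). Serpinb1a, an inhibitor of neutrophil proteases, was at 18.2, 20.7 and 13.5 CPM in the control mice and 0.437, 1.67 and 2.45 CPM in the iron-loaded mice (log2 fold change -3.56, SE 0.41, adjusted p = 0.00233). None of these genes overlapped between the diets, which the choice required.

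Of 22 tested genes of hepcidin regulation and BMP-SMAD signalling, 5 rose and 2 fell, with a median log2 fold change of 0.32 against 0.01 over all genes tested. Calls numbered 3 without control mouse 2 or iron-loaded mouse 2, and 2 without control mouse 3 or iron-loaded mouse 3. Hepcidin itself, Hamp, was at 535, 79.9 and 105 CPM in the control mice and 1549.6, 1268 and 1349 CPM in the iron-loaded mice. Control mouse 1 had the highest control level, below every iron-loaded mouse, and the rise was 5.79-fold (log2 fold change 2.53, SE 0.62, adjusted p = 0.0425). With one library left out at a time, its log2 fold change stayed between 2.12 and 3.90, but its adjusted p reached 0.133, and it was called without control mouse 1 or iron-loaded mouse 1 alone. Its paralog Hamp2 moved the other way. It was at 1774, 813 and 1051 CPM in the control mice and 248, 532 and 429.5 CPM in the iron-loaded mice, 3.01-fold lower (log2 fold change -1.59, SE 0.34, adjusted p = 0.0268). Both are short, with merged exons of 410 and 583 bp. The others that rose were Smad9, Id4, Atoh8 and Smad7, and 15 of the 22 were not called. Smad9, a SMAD of the BMP branch, was at 0.87, 0.776 and 0.378 CPM in the control mice and 13.8, 11.6 and 13.3 CPM in the iron-loaded mice (log2 fold change 4.23, SE 0.28, adjusted p = 0.000179). Id4, an inhibitor of helix-loop-helix factors, was at 2.75, 2.399 and 3.25 CPM in the control mice and 7.79, 10.7 and 14.4 CPM in the iron-loaded mice (log2 fold change 1.96, SE 0.27, adjusted p = 0.00418). Atoh8, a helix-loop-helix factor of hepatocytes that acts on Hamp, was at 34.7, 8.75 and 16.5 CPM in the control mice and 62.01, 64.8 and 63.9 CPM in the iron-loaded mice (log2 fold change 1.67, SE 0.38, adjusted p = 0.0361). In these 3 genes the diets did not overlap. Smad7, the inhibitory SMAD that dampens the pathway, was at 19.1, 8.396 and 10.9 CPM in the control mice and 18.6, 50.01 and 46.3 CPM in the iron-loaded mice. Its groups overlapped, since iron-loaded mouse 1 lay below control mouse 1, and it still passed the test (log2 fold change 1.58, SE 0.39, adjusted p = 0.0428).

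Id1, a common readout of BMP signalling in the liver, did not pass, although its diets did not overlap. Its CPM were 54.9, 15.9 and 15.8 in control and 70.4, 96.2 and 106 in iron-loaded mice (log2 fold change 1.65, SE 0.43, adjusted p = 0.0531), and without iron-loaded mouse 1 its adjusted p was 0.0316. Of the receptors and co-receptors, Neo1 (neogenin), which binds hemojuvelin, fell (log2 fold change -0.61, SE 0.14, adjusted p = 0.039), and Hfe2 (hemojuvelin) was at 147, 104 and 154 CPM in the control mice and 79.1, 102 and 90.7 CPM in the iron-loaded mice (log2 fold change -0.58, SE 0.18, adjusted p = 0.0898). Id2 and Id3 did not pass, with log2 fold changes of 0.39 (SE 0.18) and 0.61 (SE 0.36). The ligand gene Bmp6 did not pass the expression filter. The study, in contrast, described Bmp6 as well represented with both kits. It reported a rise of Bmp6 and of Id1 by both kits and by RT-qPCR of the same RNA. What lies behind the difference for Bmp6 was not tested.

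The promoters of Hamp, Hamp2 and Smad9 are printed because those of Hamp and Hamp2 are near copies of genes that moved in opposite directions. GGCGCC is the core of the BMP response element described in hepcidin promoters. It was searched on both strands, which for this palindrome are the same, in RefSeq promoter windows (GRCm38.p6) of 250 bases before to 50 after the start site. It occurred in 11.9% of the 32851 windows, in 8 of the 16 windows of the tested list and, among these, in 4 of the 6 of called genes (Hamp, Id4, Smad9 and Neo1) and in those of Id2, Smad5, Bmpr1a and Bmpr2, which were not called. Capitals mark it. The windows are chr7:30943980-30944279 for Hamp, chr7:30924132-30924431 for Hamp2 (both minus strand) and chr3:54755332-54755631 for Smad9 (plus strand).
Hamp: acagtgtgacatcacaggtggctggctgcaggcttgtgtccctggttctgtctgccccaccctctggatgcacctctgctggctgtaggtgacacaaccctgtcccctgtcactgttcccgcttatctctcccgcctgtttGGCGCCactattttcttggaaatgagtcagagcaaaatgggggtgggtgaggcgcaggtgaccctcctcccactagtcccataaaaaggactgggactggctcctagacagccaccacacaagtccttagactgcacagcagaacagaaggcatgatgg
Hamp2: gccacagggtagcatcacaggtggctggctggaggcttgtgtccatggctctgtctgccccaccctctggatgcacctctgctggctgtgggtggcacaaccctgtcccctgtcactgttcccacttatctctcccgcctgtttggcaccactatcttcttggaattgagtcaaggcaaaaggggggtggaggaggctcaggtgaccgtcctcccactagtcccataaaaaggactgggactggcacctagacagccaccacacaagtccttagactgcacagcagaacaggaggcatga
Smad9: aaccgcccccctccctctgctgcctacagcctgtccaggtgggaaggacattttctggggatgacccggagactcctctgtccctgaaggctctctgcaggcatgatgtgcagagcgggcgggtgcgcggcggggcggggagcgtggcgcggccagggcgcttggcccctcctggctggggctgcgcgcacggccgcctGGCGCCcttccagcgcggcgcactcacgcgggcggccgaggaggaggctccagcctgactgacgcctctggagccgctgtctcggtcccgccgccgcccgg

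Aligned end to end, the Hamp and Hamp2 windows were identical at 276 of 303 columns (91.1%). The Hamp motif starts 109 bases before the start site, and the aligned bases of Hamp2 carry 1 substitution in it, G4A, counted from 1 at the motif’s 5’ end. No GGCGCC is found in the Hamp2 window. This is a description of letters, and binding was not measured.

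**Figure D2:**
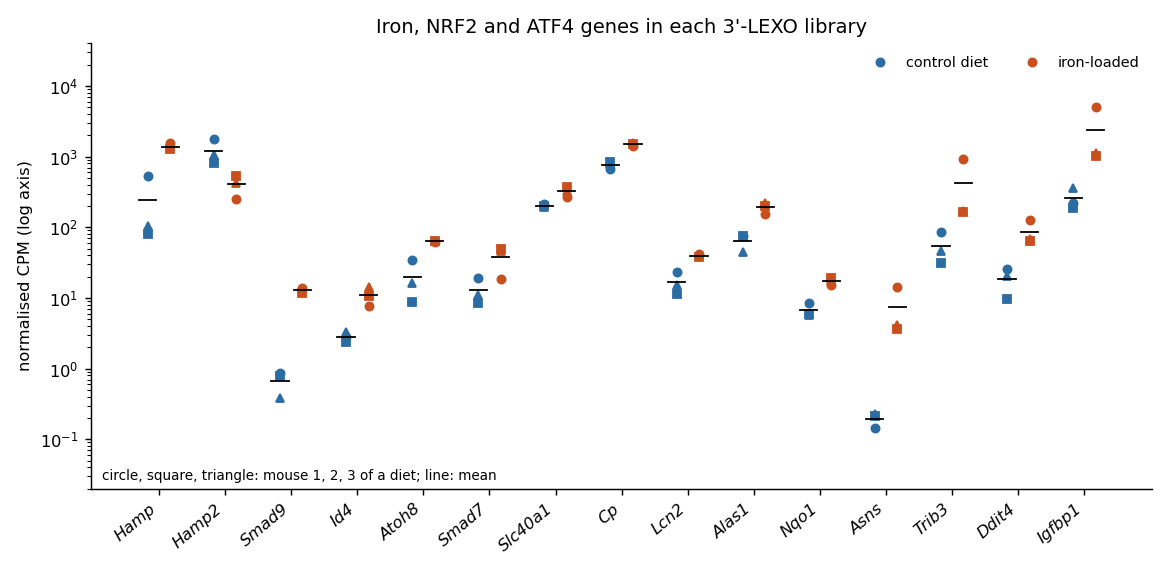
Normalised CPM (vertical log axis) of 15 genes of iron sensing, iron handling and stress in each 3’-LEXO library, control diet in blue and iron-loaded in orange, with mouse 1 as circle, mouse 2 as square, mouse 3 as triangle and the mean as a line. The diets overlap in Smad7 alone among the genes drawn, and Hamp2 is the one that lies lower in iron-loaded mice. Iron-loaded mouse 1 is the highest point in Asns, Trib3, Ddit4 and Igfbp1 and, by less, in Hamp, Smad9 and Lcn2.

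Among 22 tested genes of iron storage and transport 3 rose and none fell, and the median log2 fold change was 0.14. Slc40a1 encodes ferroportin, the iron exporter. It was at 211, 198 and 192 CPM in the control mice and 265, 369.6 and 327 CPM in the iron-loaded mice, 1.603-fold higher (log2 fold change 0.68, SE 0.16, adjusted p = 0.0411). Cp encodes ceruloplasmin, the plasma ferroxidase. It was at 659.8, 841 and 796 CPM in the control mice and 1426, 1502 and 1537 CPM in the iron-loaded mice, 1.94-fold higher (log2 fold change 0.96, SE 0.17, adjusted p = 0.0138). Lcn2, which binds bacterial iron carriers, was at 23.2, 11.5 and 15.3 CPM in the control mice and 41.2, 37.8 and 38.8 CPM in the iron-loaded mice (log2 fold change 1.24, SE 0.23, adjusted p = 0.0169). In all 3 the iron-loaded mice lay above the controls, and each was also called without iron-loaded mouse 1. Without control mouse 3 none of the 3 was called, without control mouse 1 or iron-loaded mouse 3 Lcn2 was the one left, and without control mouse 2 or iron-loaded mouse 2 Cp and Lcn2 were. Transferrin receptor Tfrc had a log2 fold change of 0.37 (SE 0.23), the importer Slc11a2 of -0.43 (SE 0.20), ferritin heavy chain Fth1 of -0.30 (SE 0.17) and transferrin Trf of -0.38 (SE 0.34), and none of these passed. Bdh2, which makes a mammalian siderophore, was at 18.3, 16.2 and 19.4 CPM in the control mice and 2.402, 10.1 and 8.81 CPM in the iron-loaded mice (log2 fold change -1.36, SE 0.39, adjusted p = 0.0693). By the study’s RT-qPCR of the same RNA, Bdh2 was lower in iron-loaded mice.

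Ferritin light chain was hardly counted at its own locus. Ftl1 had 0.217, 0.494 and 0.681 CPM in control and 1.67, 1.301 and 1.45 CPM in iron-loaded mice (log2 fold change 1.66, SE 0.44, adjusted p = 0.0557). Of its 50-base windows, 71.4% occur in another gene, and only uniquely mapped reads were counted. Its processed pseudogene Ftl2-ps, chosen after its values were seen and with 87.7% of windows shared, held 17.6, 21.4 and 37.3 CPM in control and 91.7, 44.1 and 71.5 CPM in iron-loaded mice (log2 fold change 1.44, SE 0.32, adjusted p = 0.0307). Reads of these copies could have been split between them, so both values are uncertain. By the study’s RT-qPCR of the same RNA, Ftl1 rose by less than the study found in 3’-LEXO, while its Trad-KAPA values gave no difference. In heme synthesis and breakdown 1 of 14 tested genes rose and none fell, a share near the 6.1% called over all genes. That gene was Alas1, the rate-limiting enzyme of heme synthesis in the liver, at 74.1, 75 and 44.5 CPM in the control mice and 153, 199 and 220.3 CPM in the iron-loaded mice (log2 fold change 1.56, SE 0.23, adjusted p = 0.00556).

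Of 20 NRF2 targets tested, 8 were called higher and none lower, with a median log2 fold change of 0.67, and without iron-loaded mouse 1 the counts were 9 and 0. The number higher was 5, 3 and 1 without control mouse 1, 2 and 3 and 4 without iron-loaded mouse 3. Nqo1, a quinone reductase, was at 8.41, 5.93 and 5.67 CPM in the control mice and 15.3, 19.3 and 17.3 CPM in the iron-loaded mice (log2 fold change 1.37, SE 0.20, adjusted p = 0.00562). Gstp1, a glutathione transferase, was at 6.82, 6.77 and 7.71 CPM in the control mice and 51.9, 16.4 and 26.5 CPM in the iron-loaded mice (log2 fold change 2.16, SE 0.36, adjusted p = 0.0109). It shares 46.7% of its 50-base windows with other genes, and its log2 fold change was 1.59 without iron-loaded mouse 1. Ephx1, a microsomal epoxide hydrolase, was 2-fold higher (log2 fold change 1.00, SE 0.16, adjusted p = 0.00888) and Gstm3 was 2.21-fold higher (log2 fold change 1.14, SE 0.21, adjusted p = 0.0158). The diets did not overlap in any of these 4 genes. Of 17 tested glutathione peroxidases and selenoproteins 3 were called lower and none higher, with a median log2 fold change of -0.11, and 1 was called without control mouse 3. Dio1, the deiodinase that activates thyroid hormone in the liver, was at 73.6, 99.2 and 90.6 CPM in the control mice and 8.66, 15.8 and 13.1 CPM in the iron-loaded mice, 7.04-fold lower (log2 fold change -2.82, SE 0.23, adjusted p = 0.000575). Selenow was at 11.02, 10.7 and 11.7 CPM in the control mice and 3.42, 5.39 and 5.27 CPM in the iron-loaded mice (log2 fold change -1.26, SE 0.21, adjusted p = 0.0114). Gpx1, the cytosolic glutathione peroxidase, was at 6371, 3581 and 6855 CPM in the control mice and 1614, 2729.6 and 2912 CPM in the iron-loaded mice (log2 fold change -1.21, SE 0.30, adjusted p = 0.0452). No member of the 12 tested metallothioneins and zinc transporters was called, and Mt1 and Mt2, the zinc-binding metallothioneins, had log2 fold changes of -0.43 (SE 0.19) and -0.41 (SE 0.24).

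Of 18 tested genes of the ATF4 amino acid response and serine synthesis, 5 rose and none fell, with a median log2 fold change of 1.21, which was 0.56 without iron-loaded mouse 1, where 5 were higher and 1 was lower. Without control mouse 1 there were 3 calls, and 2 without control mouse 2 or 3. Atf4 itself was at 89.2, 95.3 and 92.9 CPM in the control mice and 341, 152 and 163 CPM in the iron-loaded mice (log2 fold change 1.24, SE 0.28, adjusted p = 0.0355). Ddit4, an inhibitor of mTOR signalling, was at 25.3, 9.74 and 20.4 CPM in the control mice and 125, 64.9 and 67.7 CPM in the iron-loaded mice (log2 fold change 2.22, SE 0.36, adjusted p = 0.00908). Slc7a11, the cystine importer, was at 0.217, 0 and 0.0756 CPM in control and 1.38, 1.02 and 0.818 CPM in iron-loaded mice. Its control libraries held at most 3 counts, and the rise of its mean was at least 4.91-fold (log2 fold change 3.36, SE 0.70, adjusted p = 0.0245). Trib3, a pseudokinase that restrains ATF4, was at 86.7, 31.6 and 45.9 CPM in the control mice and 930.5, 163 and 170.2 CPM in the iron-loaded mice (log2 fold change 2.94, SE 0.67, adjusted p = 0.0359). Iron-loaded mouse 1 was the highest of the 6 in all 5 called genes. Without it the log2 fold change was 4.24 for Asns, 3.11 for Slc7a11, 1.84 for Ddit4, 1.597 for Trib3 and 0.76 for Atf4, and all 5 were still called. Slc7a11, Trib3 and Atf4 were each called in 3 of the 6 fits with a library left out. In the unfolded protein response 1 of 18 genes was called, the chaperone Dnajb9 (log2 fold change 1.09, SE 0.23, adjusted p = 0.0284), and none was without any one control mouse, while 4 were without iron-loaded mouse 1. Hspa5, its most abundant member, was at 1436, 1234 and 2067 CPM in the control mice and 4049, 1617 and 1619 CPM in the iron-loaded mice (log2 fold change 0.62, SE 0.36, adjusted p = 0.315), and without iron-loaded mouse 1 its log2 fold change was 0.03. Of 13 tested p53 targets 1 rose, Trp53inp1 (log2 fold change 1.33, SE 0.33, adjusted p = 0.0466), and none was called without any one control mouse. The share called in the unfolded protein response and p53 lists was near the 6.1% of all genes.

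The promoter windows of Asns, Slc7a11 and Trib3 are printed because they carry TGATGNAA, the composite element that ATF4 binds with a C/EBP partner. On either strand it was found in 3.97% of the 32851 windows and in 7 of 17 windows of the tested list. Those 7 include these 3 of the 5 called genes. Capitals mark it, and in Trib3 and in the second match of Slc7a11 it lies on the opposite strand. The windows are chr6:7693160-7693459 for Asns, chr3:50443564-50443863 for Slc7a11 and chr2:152344011-152344310 for Trib3, all on the minus strand of GRCm38.p6. A match is a description and no measured site.
Asns: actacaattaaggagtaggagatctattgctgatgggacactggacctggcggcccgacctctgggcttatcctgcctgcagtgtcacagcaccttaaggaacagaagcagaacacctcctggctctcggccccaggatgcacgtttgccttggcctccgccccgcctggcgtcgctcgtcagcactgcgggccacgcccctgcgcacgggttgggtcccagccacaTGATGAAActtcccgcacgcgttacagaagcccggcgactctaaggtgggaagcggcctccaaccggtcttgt
Slc7a11: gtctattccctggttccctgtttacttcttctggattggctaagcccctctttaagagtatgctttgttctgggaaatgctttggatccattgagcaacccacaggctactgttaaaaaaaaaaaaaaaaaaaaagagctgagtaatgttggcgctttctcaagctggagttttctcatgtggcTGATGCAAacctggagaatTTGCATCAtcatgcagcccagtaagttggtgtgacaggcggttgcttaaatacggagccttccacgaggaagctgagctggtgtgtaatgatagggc
Trib3: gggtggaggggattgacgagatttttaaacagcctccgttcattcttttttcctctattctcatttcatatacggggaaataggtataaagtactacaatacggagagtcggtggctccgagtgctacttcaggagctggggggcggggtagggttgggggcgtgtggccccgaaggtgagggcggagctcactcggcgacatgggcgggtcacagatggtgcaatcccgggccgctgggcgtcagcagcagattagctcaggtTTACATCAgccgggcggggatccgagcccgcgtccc

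Of 13 tested markers of macrophages that handle lipid and debris, 7 were called higher and none lower, with a median log2 fold change of 1.11, and the summed CPM of the 14 listed markers was 228 to 444 in control and 779 to 874 in iron-loaded mice. Cd63, a tetraspanin of lysosomes, was at 35.7, 23.7 and 31.8 CPM in the control mice and 217, 238 and 261 CPM in the iron-loaded mice (log2 fold change 2.97, SE 0.19, adjusted p = 0.000179). Lpl, lipoprotein lipase, was at 45.02, 96.8 and 70.6 CPM in the control mice and 434, 330.2 and 373 CPM in the iron-loaded mice (log2 fold change 2.42, SE 0.26, adjusted p = 0.00173). Gpnmb, a lysosomal glycoprotein, was at 0.217, 0.141 and 0.378 CPM in the control mice and 6.91, 2.23 and 2.999 CPM in the iron-loaded mice (log2 fold change 4.02, SE 0.58, adjusted p = 0.00555). None of these overlapped between the diets. Of the 6 not called, Itgax (log2 fold change 1.43, SE 0.39), Lgals1 (0.96, SE 0.27) and Cd68 (0.27, SE 0.19) had positive values. Those of Fabp5 (-0.90, SE 0.47), Ctsk (-0.08, SE 0.46) and Atp6v0d2 (-0.06, SE 0.35) were negative. Lpl and Cd63 were the largest parts of the sum in iron-loaded mice, and their cell of origin in bulk liver was not measured. Of 13 Kupffer cell markers only Marco was called, and the 13 summed to 1346 to 1706 CPM in control and 1629 to 1806 CPM in iron-loaded mice. Marco, a scavenger receptor, was at 23.9, 18.6 and 16.9 CPM in the control mice and 221, 86.8 and 112 CPM in the iron-loaded mice (log2 fold change 2.82, SE 0.33, adjusted p = 0.00233), while Cd5l and C1qa, abundant Kupffer genes, had log2 fold changes of 0.11 (SE 0.16) and 0.18 (SE 0.22).

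Of 26 tested chemokines and receptors 6 were called higher and 1 lower. Calls numbered 3, 2 and 3 without control mouse 1, 2 and 3, 4 without iron-loaded mouse 2 and 3 without iron-loaded mouse 3. Ccl2, which attracts monocytes, was at 1.23, 1.48 and 0.907 CPM in the control mice and 5.82, 7.06 and 7.36 CPM in the iron-loaded mice (log2 fold change 2.47, SE 0.26, adjusted p = 0.00159). Ccl7, of the same receptor, was at 0.29, 0.212 and 0.378 CPM in the control mice and 1.75, 2.88 and 1.27 CPM in the iron-loaded mice (log2 fold change 2.71, SE 0.48, adjusted p = 0.0142). Ccl6 was at 27.5, 28.4 and 27.8 CPM in the control mice and 95.3, 83 and 72.2 CPM in the iron-loaded mice (log2 fold change 1.58, SE 0.15, adjusted p = 0.000767), and Cxcl1, which attracts neutrophils, at 63.2, 39.2 and 19.1 CPM in the control mice and 107, 109 and 146 CPM in the iron-loaded mice (log2 fold change 1.58, SE 0.35, adjusted p = 0.0329). The diets did not overlap in any of them. S100a8 and S100a9, the calprotectin subunits, were the 2 called among 4 tested neutrophil markers, with neither called without control mouse 2 or 3 and 1 called without iron-loaded mouse 2 or 3. S100a9 was at 6.09, 5.36 and 3.86 CPM in the control mice and 9.75, 23.3 and 20.2 CPM in the iron-loaded mice (log2 fold change 1.79, SE 0.32, adjusted p = 0.0143). The 11 neutrophil markers summed to 9.53 to 21.02 CPM in control and 27.3 to 66.7 CPM in iron-loaded mice. Summed over the libraries of a diet, 8 of the 11 had more counts in iron-loaded than in control mice, among them the receptors Csf3r (1 count in control and 17 in iron-loaded) and Cxcr2 (1 and 9), and the granule genes Ngp (19 and 66) and Camp (47 and 77). The other 3 had fewer, Ly6g with 1 and 0, Elane with 6 and 0 and Mpo with 13 and 7. The sums of Ngp and Camp hide iron-loaded mouse 1, which lay below every control mouse in both. Ngp had 5, 9 and 5 counts in the control mice and 1, 37 and 28 in the iron-loaded mice. Camp had 28, 13 and 6 counts in the control mice and 2, 32 and 43 in the iron-loaded mice. Whether a change in cell number had a part in these values was not tested.

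In sinusoidal endothelium, Stab2, a hyaluronan scavenger receptor, fell (log2 fold change -0.60, SE 0.13, adjusted p = 0.0307) and Lyve1 rose (log2 fold change 1.16, SE 0.28, adjusted p = 0.0435) among 10 tested, with neither called without any one control mouse, and Lyve1 was not called without iron-loaded mouse 1 (adjusted p = 0.0619). No member was called among 10 stellate cell, 8 lymphocyte, 4 bile duct, 6 red cell and 8 MHC class II genes tested. Red cell genes had a median log2 fold change of -1.902. Hbb-bs, beta globin, was at 64.9, 184 and 533 CPM in the control mice and 42.2, 91.6 and 73.1 CPM in the iron-loaded mice (log2 fold change -1.92, SE 0.61, adjusted p = 0.0896), so that control mouse 3 set much of the control mean and the groups overlapped. Of 20 collagen and matrix genes 3 rose and 2 fell, and 1 was called without any one control mouse or iron-loaded mouse 3. Col4a2, of basement membrane, was higher (log2 fold change 0.76, SE 0.16, adjusted p = 0.0293), while Col6a3 (log2 fold change -0.74, SE 0.17, adjusted p = 0.0352) and Col5a1 (log2 fold change -0.96, SE 0.23, adjusted p = 0.039) were lower. Of 24 tested interferon-stimulated genes 3 fell and none rose, namely Ifit3 (log2 fold change -1.29, SE 0.25, adjusted p = 0.0206), Isg15 (log2 fold change -1.08, SE 0.27, adjusted p = 0.0447) and Oas2 (log2 fold change -1.46, SE 0.37, adjusted p = 0.0499), and 1 was called without control mouse 1 or 3 or iron-loaded mouse 1 or 3 and none without control mouse 2.

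**Figure D3:**
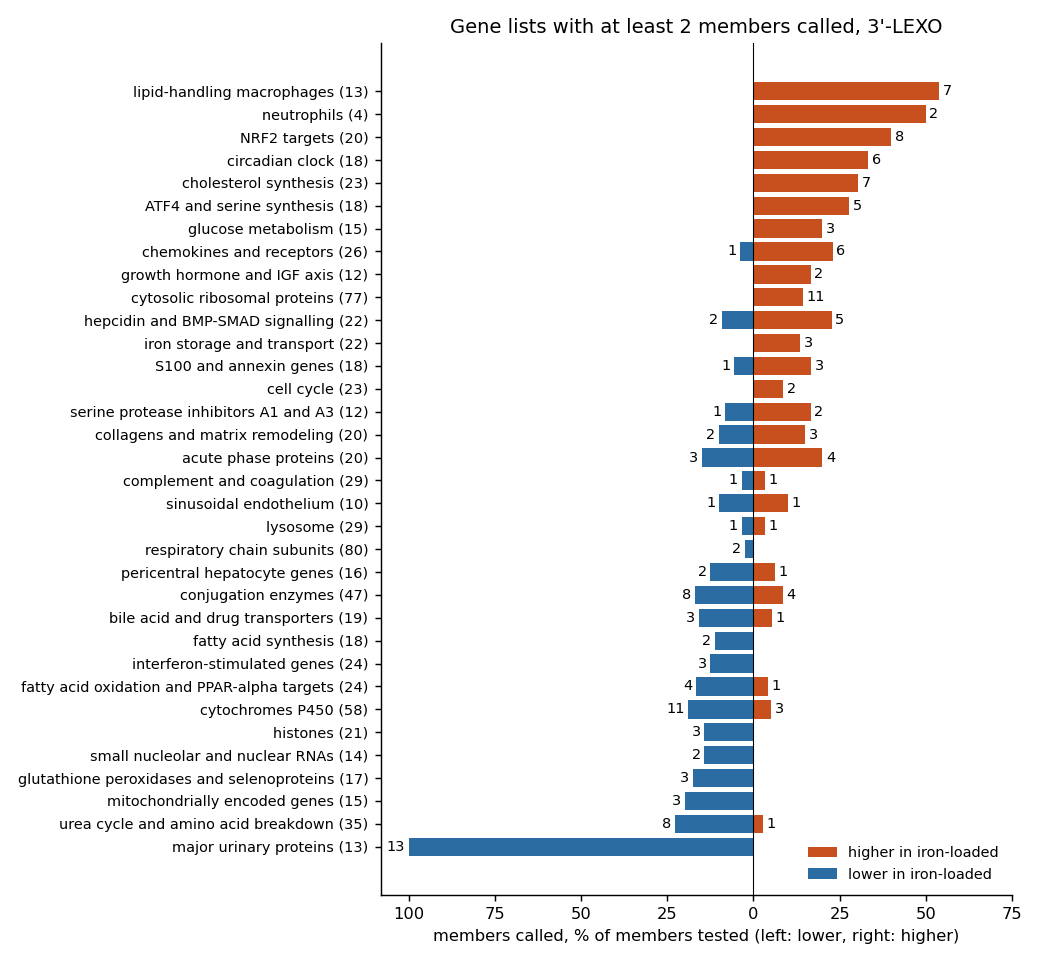
Share of tested members called higher (orange, right) and lower (blue, left) in iron-loaded mice for each gene list with at least 2 members called, with the number of members tested in brackets and the number called at each bar. All 13 major urinary proteins tested, some of which passed the filter through the control mice alone, lie on the left. Macrophage, NRF2, clock, cholesterol synthesis and ATF4 genes lie on the right alone. Over all genes tested 6.1% were called, which is not drawn. The lists were chosen with earlier results of these data known.

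In the acute phase list 4 of 20 genes rose and 3 fell, and 4 were called without any one of the control mice. Apcs, serum amyloid P, was at 393, 499 and 400.1 CPM in the control mice and 1510.3, 1443 and 1441 CPM in the iron-loaded mice (log2 fold change 1.77, SE 0.17, adjusted p = 0.000835). Saa2, serum amyloid A, fell 9.301-fold, from 1340.1, 788 and 339 CPM in control to 30.8, 137 and 97.3 CPM in iron-loaded mice (log2 fold change -3.22, SE 0.58, adjusted p = 0.0155). Orm3, an orosomucoid, was at 55.8, 32.7 and 56.5 CPM in the control mice and 7.496, 14.96 and 15.1 CPM in the iron-loaded mice (log2 fold change -1.96, SE 0.29, adjusted p = 0.00677). In complement and coagulation C9, of the membrane attack complex, fell (log2 fold change -1.79, SE 0.30, adjusted p = 0.0107) and Kng1, kininogen, rose (log2 fold change 0.74, SE 0.17, adjusted p = 0.0335), while the other 27 of 29 did not pass. The share called in this list was near the 6.1% of all genes. Kng1 was called in the full set and without iron-loaded mouse 1 alone, and C9 was not called without control mouse 3. Serpina1e was higher (log2 fold change 1.77, SE 0.29, adjusted p = 0.00928), as was Serpina1d (log2 fold change 1.14, SE 0.26, adjusted p = 0.0355), both protease inhibitors of the alpha-1-antitrypsin family, and Serpina3a was lower (log2 fold change -2.49, SE 0.44, adjusted p = 0.0138). None of these 3 was called without control mouse 3. They belong to families of near copies, and Serpina1d shares 50.9% of its windows. Of 12 tested apolipoproteins 1 rose, Apoa5, which aids lipoprotein lipase, at 852, 539.8 and 645 CPM in the control mice and 1596, 1261 and 1428 CPM in the iron-loaded mice (log2 fold change 1.07, SE 0.21, adjusted p = 0.0185), and it was not called without control mouse 2 or 3 or iron-loaded mouse 3.

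Of 20 listed major urinary protein genes (Mup) 13 passed the filter and all 13 fell, with a median log2 fold change of -4.39, and 10 to 13 of them were called lower with any one library left out. These secreted lipocalins bind pheromones, are under the control of growth hormone and lie in one cluster of near copies on chromosome 4. Their summed level was 1120 to 1616 CPM in control and 32.6 to 94.8 CPM in iron-loaded mice. Mup3 was at 826, 1028 and 1281 CPM in the control mice and 18.5, 66.5 and 35.4 CPM in the iron-loaded mice (log2 fold change -4.71, SE 0.44, adjusted p = 0.000767). Mup18 was at 177, 213 and 172 CPM in the control mice and 9.39, 17.3 and 8.91 CPM in the iron-loaded mice (log2 fold change -3.99, SE 0.27, adjusted p = 0.000179). Mup9 was at 76.8, 69.4 and 103 CPM in the control mice and 2.98, 6.13 and 2.45 CPM in the iron-loaded mice (log2 fold change -4.44, SE 0.32, adjusted p = 0.000272). In these 3 every iron-loaded mouse lay below every control mouse. Mup1 was at 13.3, 15.8 and 19.4 CPM in the control mice and 0.728, 1.21 and 0.363 CPM in the iron-loaded mice (log2 fold change -4.39, SE 0.33, adjusted p = 0.000297). Mup5 was at 2.9, 3.53 and 3.86 CPM in the control mice and 0.0728, 0.0929 and 0.0909 CPM in the iron-loaded mice. Its iron-loaded libraries held at most 3 counts, and its mean was at least 13.4-fold lower (log2 fold change -5.19, SE 0.45, adjusted p = 0.000637). Members near 0 in iron-loaded mice, such as Mup5, could pass the filter through the control mice alone. The filter thus favoured a fall in the count of 13 and in the median. Mup3 and Mup18 had reads in every library of both diets. Mup9 shares 91.5% and Mup18 89.6% of their 50-base windows with other genes, against 16.4% in Mup3, so levels of single members are uncertain. In the axis of growth hormone and insulin-like growth factor 2 of 12 tested genes rose, H19 and Igfbp1. Igfbp1, a binding protein induced by fasting and stress, was at 218, 189 and 363 CPM in the control mice and 4990.1, 1010 and 1127 CPM in the iron-loaded mice, with iron-loaded mouse 1 the highest (log2 fold change 3.21, SE 0.60, adjusted p = 0.0169). Without that mouse its log2 fold change was 2.05 (adjusted p = 0.000704), and it was not called without any one control mouse.

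Of 23 tested genes of cholesterol synthesis, 7 were called higher and none lower, and without iron-loaded mouse 1 the counts were 11 and 0. The number higher was 1, 4 and 0 without control mouse 1, 2 and 3 and 3 and 1 without iron-loaded mouse 2 and 3. Sqle, squalene epoxidase, was at 16.1, 45.4 and 34.6 CPM in the control mice and 92.7, 104 and 94.2 CPM in the iron-loaded mice (log2 fold change 1.595, SE 0.30, adjusted p = 0.0182). Fdft1 was 2.003-fold (log2 fold change 1.002, SE 0.20, adjusted p = 0.0199) and Lss 1.91-fold higher (log2 fold change 0.94, SE 0.21, adjusted p = 0.0333). In fatty acid synthesis 2 of 18 tested were called lower and none higher, and 1 was without any one control mouse or iron-loaded mouse 3. Elovl5, which elongates polyunsaturated fatty acids, was at 1553, 2358 and 1725 CPM in the control mice and 619.6, 739.8 and 832 CPM in the iron-loaded mice (log2 fold change -1.36, SE 0.21, adjusted p = 0.00784). Acacb, the acetyl-CoA carboxylase of mitochondria, was at 98.9, 84.2 and 59.4 CPM in the control mice and 15.9, 38.5 and 33.9 CPM in the iron-loaded mice (log2 fold change -1.46, SE 0.31, adjusted p = 0.0258). Scd1, the stearoyl-CoA desaturase, was at 5729, 5169 and 4788 CPM in the control mice and 117, 1509.7 and 1188 CPM in the iron-loaded mice, where the low value of iron-loaded mouse 1 widened the spread (log2 fold change -2.48, SE 0.68, adjusted p = 0.06). Without that mouse its log2 fold change was -1.96 and its adjusted p 0.000237. Of 24 tested genes of fatty acid oxidation 4 fell and 1 rose, which left 2 calls without control mouse 2 or 3 or iron-loaded mouse 3. Plin2, which coats lipid droplets, was at 445, 637 and 581 CPM in the control mice and 210.5, 230.4 and 229 CPM in the iron-loaded mice (log2 fold change -1.31, SE 0.17, adjusted p = 0.00393). Acot1, an acyl-CoA thioesterase (log2 fold change -2.31, SE 0.43, adjusted p = 0.0176), and Cpt2, of carnitine transport (log2 fold change -0.66, SE 0.15, adjusted p = 0.0367), were lower too. Cyp4a14, a fatty acid hydroxylase of the same PPAR-alpha program, went up from 64.02, 139 and 100.5 CPM in control to 946, 603 and 561 CPM in iron-loaded mice (log2 fold change 2.796, SE 0.31, adjusted p = 0.00183).

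Among 58 tested cytochromes P450, 11 fell and 3 rose. There were 8 and 5 calls without control mouse 1 and 2, 5 without control mouse 3 and 7 without iron-loaded mouse 3. Cyp8b1, which makes cholic acid, was at 278, 289.7 and 263 CPM in the control mice and 125, 153 and 132 CPM in the iron-loaded mice (log2 fold change -1.02, SE 0.15, adjusted p = 0.00556). Cyp4f15 was at 195, 158 and 134 CPM in the control mice and 72.6, 82.3 and 75.9 CPM in the iron-loaded mice (log2 fold change -1.08, SE 0.17, adjusted p = 0.00806). Cyp26b1, which breaks down retinoic acid, was at 33.2, 20.5 and 38.6 CPM in the control mice and 183, 78.1 and 94.9 CPM in the iron-loaded mice (log2 fold change 1.95, SE 0.33, adjusted p = 0.0123). The most abundant, Cyp2e1 and Cyp3a11, had log2 fold changes of 0.38 (SE 0.28) and -0.03 (SE 0.18). Of 47 tested conjugation enzymes 8 fell and 4 rose, and the number called was 7, 6 and 4 without control mouse 1, 2 and 3. Sult5a1 was at 12.8, 18.4 and 16.6 CPM in the control mice and 5.17, 3.07 and 3.63 CPM in the iron-loaded mice (log2 fold change -1.997, SE 0.24, adjusted p = 0.00257), Ugt2b35 rose (log2 fold change 1.23, SE 0.19, adjusted p = 0.00786), and Sult1e1, the estrogen sulfotransferase, was at 21.8, 15.2 and 28.2 CPM in the control mice and 133, 62.7 and 62.5 CPM in the iron-loaded mice (log2 fold change 1.99, SE 0.33, adjusted p = 0.0101). Of 19 bile acid and drug transporters and their regulators 3 fell and 1 rose, with 2 calls without control mouse 2 or 3 and 7 without iron-loaded mouse 1. Nr0b2, the repressor that bile acids induce, was at 21.3, 22.3 and 35.01 CPM in the control mice and 6.33, 9.202 and 8.54 CPM in the iron-loaded mice (log2 fold change -1.71, SE 0.24, adjusted p = 0.0044). Abcb11, the bile salt export pump, fell 1.56-fold (log2 fold change -0.64, SE 0.15, adjusted p = 0.037).

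Of 35 tested genes of the urea cycle and amino acid breakdown, 8 were called lower and 1 higher, and without iron-loaded mouse 1 the counts were 10 and 0. There were 3 and 2 calls without control mouse 1 and 3, and 3 without iron-loaded mouse 3. Oat, ornithine aminotransferase of pericentral hepatocytes, was at 383, 327 and 459 CPM in the control mice and 158, 112 and 111 CPM in the iron-loaded mice (log2 fold change -1.62, SE 0.20, adjusted p = 0.00307). Hpd, of tyrosine breakdown, was at 598, 544 and 657 CPM in the control mice and 323, 303 and 288 CPM in the iron-loaded mice (log2 fold change -0.98, SE 0.15, adjusted p = 0.00819). Kynu, of tryptophan breakdown (log2 fold change -0.80, SE 0.14, adjusted p = 0.0125), and Cbs, of transsulfuration (log2 fold change -0.82, SE 0.15, adjusted p = 0.0147), were lower. The one gene higher was Tat, tyrosine aminotransferase (log2 fold change 0.95, SE 0.24, adjusted p = 0.0477), whose adjusted p was 0.058 without iron-loaded mouse 1. In glucose metabolism 3 of 15 tested genes rose, and 1, 0 and 0 were called without control mouse 1, 2 and 3 and 1 without iron-loaded mouse 3, with Pfkfb3, an activator of glycolysis, at 8.56, 6.35 and 6.58 CPM in the control mice and 12.1, 18.96 and 20.2 CPM in the iron-loaded mice (log2 fold change 1.25, SE 0.23, adjusted p = 0.0162) and Pck1, of gluconeogenesis, at a log2 fold change of -0.10 (SE 0.20). Of 16 pericentral genes 2 fell and 1 rose. The one that rose was Slc13a3 (log2 fold change 1.05, SE 0.21, adjusted p = 0.0203), and Cyp1a2 was 1.69-fold lower (log2 fold change -0.76, SE 0.17, adjusted p = 0.033). Oat was the 1 call left without any one control mouse or iron-loaded mouse 3. Clock genes rose in 6 of 18 tested and none fell, whereas without iron-loaded mouse 1 there were 7 higher and 4 lower. This dropped to 3 calls without control mouse 2 or 3, 4 without iron-loaded mouse 2 and 2 without iron-loaded mouse 3. Ciart, a repressor of the clock, was at 5.08, 1.34 and 0.907 CPM in the control mice and 25.1, 29.1 and 26.4 CPM in the iron-loaded mice (log2 fold change 3.45, SE 0.46, adjusted p = 0.00402). Per2 was at 15.01, 16.6 and 11.3 CPM in the control mice and 32.2, 53.4 and 48.1 CPM in the iron-loaded mice (log2 fold change 1.64, SE 0.22, adjusted p = 0.00412). Nr1d2 was 1.74-fold (log2 fold change 0.80, SE 0.15, adjusted p = 0.0173) and Bhlhe41 3.75-fold higher (log2 fold change 1.91, SE 0.39, adjusted p = 0.0227). Per the study’s methods, tissue was taken between late morning and early afternoon, and whether the diets differed in the hour of collection was not tested.

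Of 77 tested cytosolic ribosomal protein genes 11 rose and none fell, with a median log2 fold change of 0.70. Rplp1 was at 61.2, 69.1 and 65.9 CPM in the control mice and 154, 99.5 and 122 CPM in the iron-loaded mice (log2 fold change 0.94, SE 0.18, adjusted p = 0.0175). Rpl12 was at 6.02, 8.11 and 6.12 CPM in the control mice and 20.6, 14.1 and 15.2 CPM in the iron-loaded mice (log2 fold change 1.302, SE 0.21, adjusted p = 0.00888) and Rpl10 at 0.435, 0.706 and 0.681 CPM in the control mice and 4.51, 2.14 and 2.36 CPM in the iron-loaded mice (log2 fold change 2.305, SE 0.42, adjusted p = 0.0153). Such genes have many processed pseudogenes, and 60% of the windows of Rplp1 and 63.2% of those of Rpl10 are shared. With iron-loaded mouse 1 left out, the median was 0.44 and 9 genes were called. Calls numbered 1, 2 and 0 without control mouse 1, 2 and 3, 20 without iron-loaded mouse 2 and 4 without iron-loaded mouse 3. Of 80 tested respiratory chain subunits 2 were called lower and none higher, and none was called without any one control mouse or iron-loaded mouse 3. Cox7a1, the heart and muscle form of a cytochrome oxidase subunit, was at 1.01, 1.48 and 1.36 CPM in the control mice and 0.0728, 0.279 and 0.273 CPM in the iron-loaded mice. Its mean was at least 5.01-fold lower (log2 fold change -2.63, SE 0.53, adjusted p = 0.0216). Atp5e, of ATP synthase, was at 315, 340.1 and 317 CPM in the control mice and 202, 221 and 229 CPM in the iron-loaded mice (log2 fold change -0.58, SE 0.14, adjusted p = 0.0431). Of 15 mitochondrially encoded genes 3 fell, the transfer RNAs mt-Tq and mt-Tm and the coding gene mt-Nd6 (log2 fold change -0.78, SE 0.20, adjusted p = 0.0477), and none was called without control mouse 1 or 3 or iron-loaded mouse 3. Of 21 histone genes 3 fell and none rose, and none was called without control mouse 2 or 3 or iron-loaded mouse 1 or 2. Hist1h4i was at 6.82, 9.17 and 21.4 CPM in the control mice and 3.78, 4.28 and 3.82 CPM in the iron-loaded mice (log2 fold change -1.65, SE 0.39, adjusted p = 0.0392). In the cell cycle list 2 of 23 rose, the G1 cyclins Ccne1 (log2 fold change 1.63, SE 0.37, adjusted p = 0.0359) and Ccne2 (log2 fold change 1.67, SE 0.31, adjusted p = 0.0169), and none was called without any one control mouse or iron-loaded mouse 3. In the lysosome list 1 of 29 rose, Cd63, and 1 fell, the protease Ctsc (log2 fold change -0.77, SE 0.16, adjusted p = 0.0267), which was not called without any one control mouse or iron-loaded mouse 3. The share called in the cell cycle and lysosome lists was near the 6.1% of all genes.

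Transcripts shorter than 1000 bp were looked at on their own. Length here is that of the merged exons in GENCODE M21. Of 6409 short genes listed, 720 passed the filter, and 57 of them (7.92%) were called, 24 higher and 33 lower, against 6.1% of all genes tested. The number called was 32, 20 and 14 without control mouse 1, 2 and 3 and 25 without iron-loaded mouse 3. The share called was 6.5% under 500 bp, 8.8% from 500 to 1000 bp, 7.79% from 1000 to 2000 bp, 6.12% from 2000 to 4000 bp, 5.67% from 4000 to 8000 bp and 5.21% above. Among short protein coding genes it was 13.8%, 30 of 218. Of the 57 short genes called, 6 were Mup genes, 9 pseudogenes and 7 small RNAs, and 14 shared over 50% of their windows with another gene. The short genes with the largest changes were Mup5, Bex2, Mup12, Mup18, Mup4, Rnu11, Mup17, Mup-ps22, Spink1 and Gm22748. Short coding genes that moved also include Hamp, Hamp2, Apcs, Orm3, Selenow, Ccl7, S100a4, S100a8 and S100a9.

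**Figure D4:**
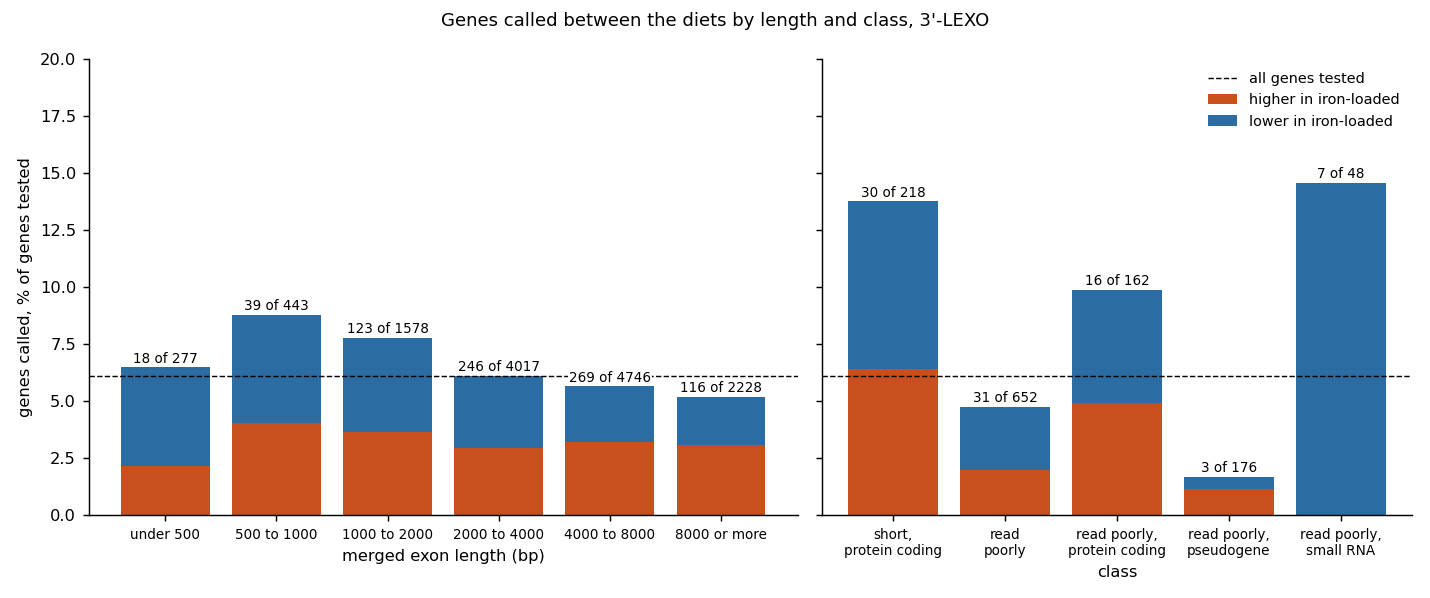
Share of tested genes called between the diets in 3’-LEXO (vertical axis, %) by merged exon length (left) and for classes of genes (right), with orange for higher and blue for lower in iron-loaded mice, the number called of the number tested above each bar and the share over all genes (6.1%) as a dashed line. Small RNAs read poorly by Trad-KAPA have 7 of 48 called, all lower, while the median log2 fold change of the 48 was -0.09.

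A gene was taken as read poorly by Trad-KAPA where its mean CPM over the 6 Trad-KAPA libraries was at most 1/8 of its mean CPM over the 6 3’-LEXO libraries. This used the level in both diets and not their difference. The class held 652 of the 13301 genes, of which 137 passed the filter in the Trad-KAPA libraries. At its edge, Ndufc1, Lsm8 and Ccnb1 lay just inside with ratios of 8.01 to 8.02, and Gm47258, Gm6142 and Gm38192 just outside with ratios of 7.95 to 7.98. Of its genes 16.3% shared over 50% of their windows with another gene, against 1.81% of the rest. Called between the diets were 31 (4.75%), 13 higher and 18 lower, which is near the 6.1% of all genes and the 6.17% of genes that were not read poorly. The share was 9.88% (16 of 162) in its protein coding genes, and 3 of 176 processed pseudogenes, 4 of 167 unconfirmed loci and 7 of 48 small RNAs were called. Of the 31, 25 did not pass the filter in the Trad-KAPA libraries, 4 were called there too and 2 were tested and not called. Without iron-loaded mouse 1, 4.2% of 690 were called, 10 higher and 19 lower. The number called was 19, 15 and 12 without control mouse 1, 2 and 3 and 14 without iron-loaded mouse 3.

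None of the 5 most abundant members was called. They were the mitochondrial ribosomal RNA mt-Rnr2, Trf, Mt2, the ATP synthase subunit Atp5g3 and Chchd2, with log2 fold changes of 0.14, -0.38, -0.41, -0.29 and -0.28 and adjusted p of 0.775, 0.515, 0.312, 0.33 and 0.315. Of the windows of Trf 81.9% are shared, and a second annotated gene, Gm20425, overlaps it on the same strand.

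Small RNAs are the members of the class that stand furthest from an mRNA. All 7 that were called were lower in iron-loaded mice, in 4 kinds: spliceosomal RNAs, nucleolar RNAs, mitochondrial transfer RNAs and a microRNA precursor. The class of 48 as a whole hardly moved, with a median log2 fold change of -0.09. Among the 14 tested small nucleolar and nuclear RNAs, values ran from -3.53 to 2.16. Sequences of 5 of the 7 called are printed from the GENCODE M21 transcripts (GRCm38), 5’ to 3’ with T for U, to show how short they are and how long their runs of A are. Capitals mark the longest run of A, which was 2 to 5 bases in these 5 and 1 to 8 bases, with a median of 4, over the 48 small RNAs of the class. They lie at chr4:132270080-132270213 (Rnu11, minus strand), chr12:17546146-17546281 (Gm22748, plus), chr7:127527874-127528003 (Snora30, plus), chrM:3772-3842 (mt-Tq, minus) and chrM:3845-3913 (mt-Tm, plus).
Rnu11: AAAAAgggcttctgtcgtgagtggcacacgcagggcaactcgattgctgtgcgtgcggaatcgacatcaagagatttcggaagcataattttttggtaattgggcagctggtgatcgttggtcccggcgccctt
Gm22748: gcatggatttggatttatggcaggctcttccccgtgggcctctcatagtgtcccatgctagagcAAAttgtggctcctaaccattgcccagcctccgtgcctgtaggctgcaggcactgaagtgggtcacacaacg
Snora30: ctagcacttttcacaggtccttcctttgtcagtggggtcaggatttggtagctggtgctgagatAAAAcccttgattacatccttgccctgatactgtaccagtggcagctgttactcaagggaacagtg
mt-Tq: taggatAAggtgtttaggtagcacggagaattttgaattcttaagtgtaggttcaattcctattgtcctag
mt-Tm: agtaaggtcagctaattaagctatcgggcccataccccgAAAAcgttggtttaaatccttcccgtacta

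Rnu11 is the U11 RNA, which recognises the 5’ splice site of the minor class of introns. It was at 7.47, 2.89 and 2.57 CPM in the control mice and 0.437, 0.558 and 0.0909 CPM in the iron-loaded mice, 11.5-fold lower (log2 fold change -3.53, SE 0.60, adjusted p = 0.0124), and had 0 counts in all 6 Trad-KAPA libraries. Gm22748, annotated as a nucleolar RNA, was at 1.81, 4.66 and 6.58 CPM in the control mice and 0.291, 0.929 and 0.454 CPM in the iron-loaded mice (log2 fold change -2.98, SE 0.56, adjusted p = 0.0177), with 0.121, 0 and 0 CPM in control and 0.134, 0 and 0.07099 CPM in iron-loaded mice by Trad-KAPA. Snora30, an H/ACA nucleolar RNA that guides pseudouridylation, was at 10.2, 9.88 and 14.9 CPM in the control mice and 1.89, 6.41 and 4.82 CPM in the iron-loaded mice (log2 fold change -1.43, SE 0.37, adjusted p = 0.0487). The diets did not overlap in these 3, and iron-loaded mouse 1 was the lowest of its diet in Gm22748 and Snora30.

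The transfer RNA for glutamine of the mitochondrion, mt-Tq, was at 7.98, 9.81 and 6.12 CPM in the control mice and 0.946, 3.81 and 2.09 CPM in the iron-loaded mice (log2 fold change -1.83, SE 0.40, adjusted p = 0.0307), against at most 0.271 CPM in any Trad-KAPA library. That for methionine, mt-Tm, was at 47.6, 45.5 and 48.9 CPM in the control mice and 17.8, 33.2 and 25.2 CPM in the iron-loaded mice (log2 fold change -0.90, SE 0.21, adjusted p = 0.0361). Neither overlapped between the diets, and both were called without iron-loaded mouse 1 or 2 but not without control mouse 1, 2 or 3 or iron-loaded mouse 3. The other called small RNAs, named after their values were seen, were the microRNA precursor Mir122 (log2 fold change -1.41, SE 0.28, adjusted p = 0.0203) and the spliceosomal RNA copy Gm25007 (log2 fold change -2.73, SE 0.67, adjusted p = 0.0426). Mir122 overlaps another annotated gene, AC157910.3, on the same strand, and all of its windows are shared, so its reads cannot be told apart from those of that gene. Snord13 and Snord118, which were more abundant, were not called. Snord13, a nucleolar RNA, was at 731, 596 and 329 CPM in the control mice and 129.8, 415 and 242 CPM in the iron-loaded mice (log2 fold change -1.07, SE 0.40, adjusted p = 0.132). Snord118, the U8 RNA, was at 274, 221 and 145 CPM in the control mice and 57.7, 192 and 135 CPM in the iron-loaded mice (log2 fold change -0.74, SE 0.38, adjusted p = 0.258). In both, iron-loaded mouse 1 was the lowest of the 6 libraries. By the study’s RT-qPCR of the same RNA, mt-Tq and Snord13 hardly differed between the diets. The study matched both to Trad-KAPA and matched Snord118 to 3’-LEXO. The other small RNAs named here were not among its qPCR genes.

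Coding genes of the class rose and fell. Spink1, a short secreted trypsin inhibitor, was at 0.362, 0.423 and 1.13 CPM in the control mice and 6.48, 5.58 and 6.09 CPM in the iron-loaded mice, 9.42-fold higher (log2 fold change 3.24, SE 0.38, adjusted p = 0.00233), and in Trad-KAPA it had 0, 0.0677 and 0.0772 CPM in control and 0.134, 0.138 and 0.142 CPM in iron-loaded mice. Tceal5, an X-linked gene of the transcription elongation factor A like family, was at 0.0725, 0 and 0.151 CPM in the control mice and 1.97, 1.86 and 2.27 CPM in the iron-loaded mice. Its control libraries held at most 3 counts, and its mean was at least 9.29-fold higher (log2 fold change 4.62, SE 0.59, adjusted p = 0.00335). S100a4, a calcium-binding protein of macrophages and fibroblasts, was at 7.61, 8.396 and 7.41 CPM in the control mice and 17.1, 16.5 and 18.3 CPM in the iron-loaded mice (log2 fold change 1.14, SE 0.15, adjusted p = 0.00418), whereas Trad-KAPA gave 0.0604, 0.135 and 0.0772 CPM in control and 0.201, 0.138 and 0.142 CPM in iron-loaded mice. Of its windows 61.7% are shared, and Gm42674 overlaps it on the same strand. Bcl2a1b, an anti-apoptotic gene of leukocytes, was at 0.435, 0.706 and 0.302 CPM in the control mice and 4.22, 1.21 and 1.73 CPM in the iron-loaded mice (log2 fold change 2.31, SE 0.56, adjusted p = 0.0415). It has near copies, with 79.2% of windows shared, and without iron-loaded mouse 1 its adjusted p was 0.0948. In Spink1, Tceal5, S100a4 and Bcl2a1b the diets did not overlap in 3’-LEXO. By the study’s RT-qPCR of the same RNA, the rise of Tceal5 was smaller than in 3’-LEXO, and the study matched it to Trad-KAPA. It matched Spink1 and S100a4 to 3’-LEXO and placed Bcl2a1b in between.

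Of the Mup genes 6 belong to the class, namely Mup4, Mup6, Mup10, Mup12, Mup18 and Mup19. Mup10 was at 7.47, 10.6 and 13.4 CPM in the control mice and 0.146, 1.02 and 0.182 CPM in the iron-loaded mice (log2 fold change -4.58, SE 0.50, adjusted p = 0.00173). Mup12 was at 4.06, 4.02 and 4.46 CPM in the control mice and 0, 0.372 and 0.273 CPM in the iron-loaded mice (log2 fold change -4.32, SE 0.54, adjusted p = 0.00307). Mup6 was at 3.62, 4.23 and 5.29 CPM in the control mice and 0.146, 0.465 and 0.182 CPM in the iron-loaded mice (log2 fold change -4.05, SE 0.43, adjusted p = 0.00146), with 4.44% of its windows shared. The mean of Mup19, all of whose windows are shared, was at least 6.94-fold and that of Mup4 at least 5.47-fold lower. The pseudogene Mup-ps22, on chromosome 11, fell in the same way (log2 fold change -3.25, SE 0.58, adjusted p = 0.0145). In Trad-KAPA, of these 7 only Mup18 passed the filter, and its log2 fold change there was -5.34 (adjusted p = 0.00143). Cd63, also of the class, had a log2 fold change of 2.97 in 3’-LEXO and of 3.54 (adjusted p = 0.000936) in Trad-KAPA, where its CPM were 1.03, 1.49 and 0.463 in control and 11.7, 12.6 and 11.2 in iron-loaded mice.

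**Figure D5:**
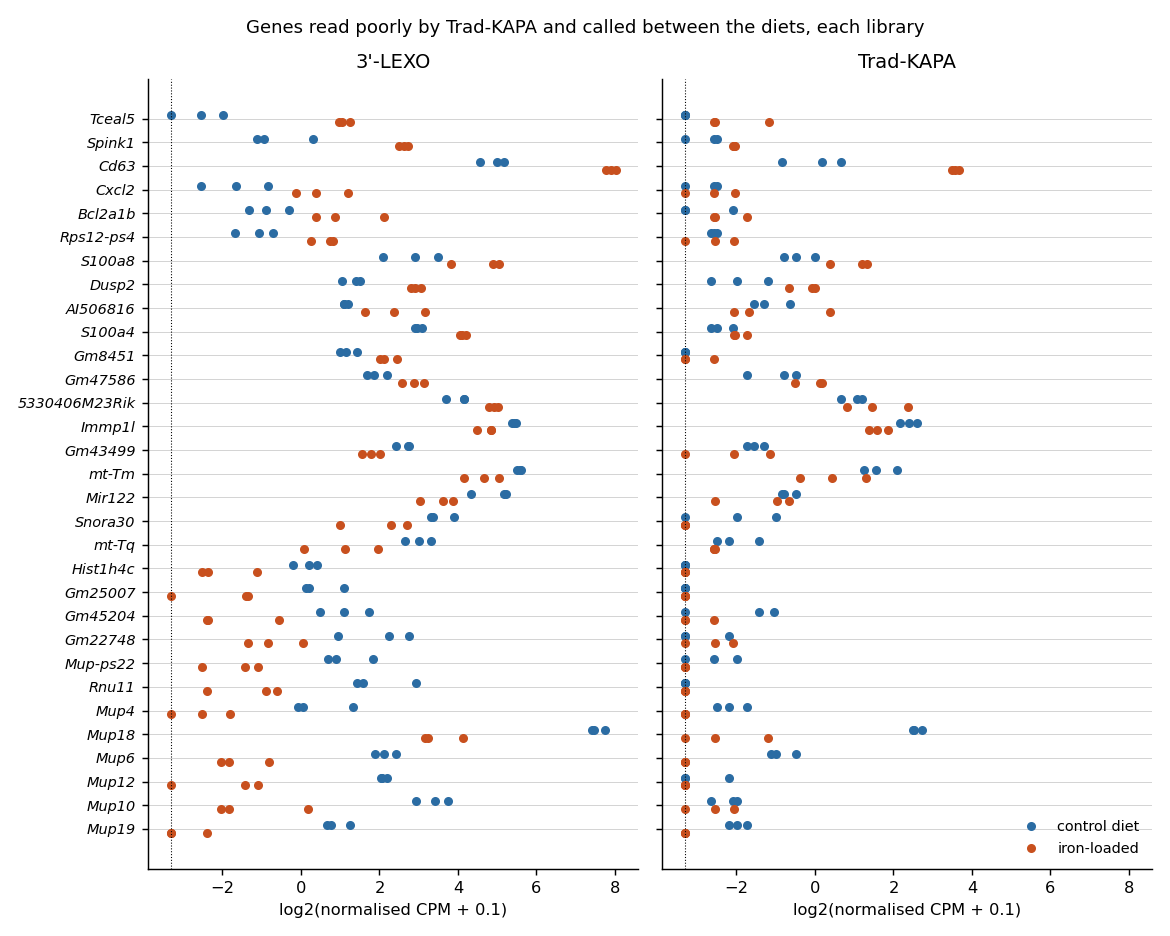
Level of the 31 genes read poorly by Trad-KAPA and called between the diets, as log2(normalised CPM + 0.1), in each 3’-LEXO library (left) and each Trad-KAPA library (right), control diet in blue and iron-loaded in orange, ordered by the log2 fold change in 3’-LEXO. The dotted line is 0 counts, on which many Trad-KAPA points lie. The 3’-LEXO points of the diets stand apart, in genes chosen because they were called in that kit.

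Set against the other kit, 3’-LEXO made 811 calls and Trad-KAPA 2255 of 13151 (17.1%). The kits were not compared at equal depth. The Trad-KAPA libraries held 13834682 to 16553616 counts and the 3’-LEXO libraries 10724672 to 14104236. What part depth had in the gap between 811 and 2255 calls was not tested. The study sampled the same number of reads from each library and also found more differentially expressed transcripts with Trad-KAPA. Both kits called 639 genes, which is 78.8% of the 3’-LEXO calls and 28.3% of the Trad-KAPA calls. These are libraries of the same mice, so one kit is no independent repeat of the other. The 172 genes called in 3’-LEXO alone (21.2%) split into 49 that did not pass the filter in Trad-KAPA and 123 that were tested there. Of the 172, 28 were short, 27 were read poorly and 134 were protein coding. A call in one kit and not in the other does not show that the effects differ. The test of the difference itself, fitted in edgeR to all 12 libraries as a diet-by-kit term, called 0 of 14384 genes, with 402 (2.79%) at an unadjusted p under 0.05, and DESeq2 called 0. The smallest p in this edgeR fit were those of Traf6, F8, Fv1, Naa20, Acer2, 1810021B22Rik, Ptprb, Mlec, Rpl6 and Bmp2. Traf6, an adaptor of innate immune signalling, was at 4.495, 4.02 and 3.55 CPM in the control mice and 12.01, 10.4 and 9.36 CPM in the iron-loaded mice in 3’-LEXO (log2 fold change 1.396, SE 0.20, adjusted p = 0.00488), with a log2 fold change of 0.52 in Trad-KAPA. Bmp2, a BMP ligand made by liver endothelium, had a log2 fold change of 0.29 (SE 0.13) in 3’-LEXO and 0.93 in Trad-KAPA. These edgeR and DESeq2 fits took no account of the RNA that both libraries of a mouse share. With the mouse as a block, which compares the kits within each mouse, the interaction called 5 genes (0.0348%), Slco1a1, Mup3, Mup9, Abcc4 and Serpina1e.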

How the data were processed

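Read counts per gene were deposited for 12 libraries, 6 per kit, from the livers of 6 mice, and the authors made them by mapping 50-base single-end reads to mm10 with STAR 2.5.3a and counting reads that mapped uniquely to exons, without removing duplicates. The counting program and annotation release are not given in the sources used here. Gene types, lengths and shared 50-base windows were taken from GENCODE M21, in which 26949 of the 27022 IDs were found, and promoter sequences from RefSeq (GRCm38.p6). Genes overlapping on a strand, or near copies, could have split or lost reads.

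The diets were compared in the 6 3’-LEXO libraries (10724672 to 14104236 counts) with edgeR 4.0.16 in R 4.3.3: filterByExpr, TMM scaling, quasi-likelihood test and Benjamini-Hochberg adjustment over all genes tested, with 0.05 as the threshold. The SE is the log2 fold change divided by the square root of F. Where every library of a diet held at most 3 counts, a fold is the mean of the other diet over 3 counts per library. It is a lower bound for the ratio of the observed means only and takes no account of the spread between mice. Levels of all genes are normalised CPM. The SE rests on the dispersion that the fit estimated, so it covers spread between mice as well as counting error. The interaction of diet and kit was fitted over the 12 libraries. DESeq2 1.42.0, other scalings, filters, lengths, ratios, depth and left-out libraries were alternatives. The script was tested on simulated data with known changes.

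Named genes were the 10 largest called rises and falls that reached 5 CPM in a diet and did not overlap between diets, the 4 most significant called and 2 most abundant other members of each gene list, the study’s qPCR genes, and the leading short, read-poorly and interaction genes. Neo1, Trib3, Ftl2-ps, Mir122 and Gm25007 were chosen after their values were seen. A gene that the rule names is not reported here. The members and gene lists were chosen with earlier results of these data known.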

Additional observations from a re-analysis of the deposited data

Results flagged for a closer look

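In 5 genes the diet effect differed between the kits by the interaction test in edgeR when the mouse was a block, so that each mouse’s libraries were compared with each other (adjusted p below 0.05, 5 of 14384 genes, 0.0348%). Without the block, 0 genes passed in edgeR and 0 in DESeq2, with 402 at an unadjusted p under 0.05. The differences are given as the log2 fold change in 3’-LEXO minus that in Trad-KAPA. They were 2.47 for Slco1a1, 1.82 for Mup9, 1.09 for Mup3, 0.92 for Serpina1e and -1.39 for Abcc4. In Slco1a1, Mup9 and Mup3, which fell in 3’-LEXO, the fall was smaller there than in Trad-KAPA, in Abcc4 the rise was smaller and in Serpina1e the rise was larger. What sets these genes apart was not tested.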

How the results depend on the processing

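The number of genes called between the diets (811) was 1313 with DESeq2, 2040 without a filter on low counts and 199 to 871 with one 3’-LEXO library left out. The 57 short genes became 91 with DESeq2, 166 without a filter, 14 to 61 with one library left out and 18 when short meant under 500 bp. The 31 genes read poorly by Trad-KAPA became 96 without a filter, 12 to 35 with one library left out, 83 at a ratio of at most 1/4, 18 at 1/16 and 7 of 196 by a mean count above 10 in 3’-LEXO and under 1 in Trad-KAPA. Scaling by library totals gave 873 calls, 59.9% of them higher against 52.0%, and gave a median log2 fold change over all genes of 0.07.

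The labels do not say whether the replicate numbers mark anything shared between the diets. Deviations of same-numbered libraries correlated at -0.17, -0.07 and 0.11, and those of differently numbered libraries at -0.16 to 0.19. With so few libraries these correlations cannot decide it. With the number as a replicate block the calls were 436 over all genes, 36 short and 17 read poorly. The interaction of diet and kit, 0 genes, became 5 with the mouse as a replicate block and stayed at 0 under the other alternatives, among them each mouse left out.

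The direction of all 131 called genes described held under every alternative. It turned in 6 genes that were not called. With one library left out their log2 fold changes ran from -0.0315 to 0.577 for Cyp2e1, from -0.0217 to 0.438 for C1qa, from -0.0579 to 0.319 for mt-Rnr2, from -0.236 to 0.0199 for Pck1, from -0.129 to 0.0425 for Cyp3a11 and from -0.0806 to 0.0544 for Ptprb. That of Cyp3a11 was 0.0323 with library totals, and that of Ptprb was -0.0123 without a filter. The causes were not tested. With 3 mice per diet, an effect that did not pass is not shown to be absent, and each diet was 1 cage.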
